A study of Homo sapiens with 15 samples.

Results

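The response of PC3 prostate cancer cells to a synthetic miR-452 mimic was measured on 4 arrays of a series of 15. PC3 is an established line from a bone metastasis of a prostate cancer. The comparison sets the 2 arrays of cells given the miR-452 mimic against the 2 arrays of cells given a scrambled mimic, across 18377 genes. All of these genes are members, chosen by the design and not by their values. Cells grew in medium with 10% serum and were transfected with 20 nM mimic using Lipofectamine 2000, with new medium after 6 h and RNA taken at 48 h. The checks used here were 2 arrays of untransfected PC3 cells, 2 arrays of PC3 cells given a miR-224 mimic, and 5 arrays of a second prostate cancer line, DU145 (2 with miR-452, 1 with the scrambled mimic, 2 untransfected). Untransfected cells were labelled as without treatment and without a mimic, and whether they received the transfection reagent is not stated. A difference from them can therefore cover both the mimic and the transfection, which cannot be told apart here. The series title concerns methylation of the GABRE locus in prostate cancer, and this comparison asks which transcripts differ when 1 of its microRNAs is supplied.

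A microRNA guides an Argonaute protein to mRNAs whose sequence pairs with its seed, bases 2 to 8 of the mature strand, and the bound mRNA is translated less and often degraded. Direct targets of a mimic are therefore looked for among transcripts that are lower, while transcripts that are higher are commonly indirect. Double-stranded RNA in the cytosol can also be recognised by sensor proteins, which switch on interferon-induced antiviral genes. MIR452 (chrX:151959628-151959712) and MIR224 (chrX:151958578-151958658) both lie within GABRE (chrX:151953124-151974676), a gene for a GABA receptor subunit. The labels call the mimic miR-452 without naming an arm, so both mature arms are shown, with the other mimic of the study for contrast. They were taken from RefSeq on GRCh38.p14, all on the minus strand, and the seed is in capitals.
hsa-miR-452-5p: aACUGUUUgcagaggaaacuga
hsa-miR-452-3p: cUCAUCUGcaaagaaguaagug
hsa-miR-224-5p: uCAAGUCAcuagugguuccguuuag
The 3 seeds differ from each other. The table holds 3 mature human microRNAs with the seed ACUGUUU, namely hsa-miR-452-5p, hsa-miR-892c-3p and hsa-miR-4676-3p.

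Levels are the deposited log2 values, which ran from 4.49 to 14.18 in PC3, and each change is a difference of group means on that scale ± limma's standard error (n = 2 arrays in each group). The threshold was an adjusted p of 0.05 (Benjamini-Hochberg over the 18377 genes), and "rose" and "fell" are used only of genes that passed. Arrays of a group correlated across genes with r from 0.9922 to 0.9968. The lowest value was that of the scrambled pair, and scrambled array c correlated more closely with miR-452 array c (r = 0.9938) than with scrambled array b. The spread of levels also differed, with an interquartile range of 2.75 and 2.68 in the untransfected arrays, 2.59 and 2.43 in the scrambled arrays and 2.48 and 2.44 in the miR-452 arrays. Of the 5 epithelial markers, 3 were among the highest genes and CDH1 (E-cadherin, percentile 39.8) and EPCAM (58.7) were not. KRT8, KRT18 and KRT19, keratins of simple epithelia, lay at percentiles 98.5, 97.0 and 97.9 of mean level. The 4 measured leukocyte markers ranged from percentile 2.3 (PTPRC) to 27.7 (CD14). KLK3, an androgen-regulated prostate gene, lay at percentile 29.3. Markers of other types were not all low. They ranged from 18.7 to 79.0 (KDR) for endothelial, 2.0 to 69.6 (COL1A1) for fibroblast and 20.5 to 63.5 (INSM1) for neuroendocrine markers.

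With miR-452, 531 genes rose and 428 fell against the scrambled mimic, 2.89% and 2.33% of the genes tested. These 2 shares are the background for the counts of rises and falls in each list below. The median change of all genes was 0.01. At an unadjusted p under 0.05 by limma, 1681 of the 18377 genes were higher and 1515 lower. Changes were mostly modest, with 25 genes up and 12 down by more than 2-fold. Against untransfected cells, 1493 genes were higher (8.12%) and 2587 lower (14.1%). Both comparisons use the same miR-452 arrays, which by itself favours calls in the same direction, so the counts that follow describe these arrays and are no independent support. Of the 428 falls, 379 (88.6%) passed as lower against untransfected cells as well and 0 as higher, while of the 531 rises 206 (38.8%) were also higher and 15 were lower. Between cells given the scrambled mimic and untransfected cells, 2007 genes were lower (10.9%) and 611 higher (3.32%) in the former. A rise against the scrambled mimic thus has to be read with the untransfected level beside it, which is given below for many genes but not for all. Rises named below without it that did not pass against untransfected cells include TNFRSF10B (0.12), SERPINB5 (0.10), ITGAV (0.24) and TNFSF10 (0.20).

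The number of calls rests on few arrays. Without scrambled array b there were 395 rises and 190 falls, without miR-452 array b 235 and 245, and without miR-452 array c 264 and 205. Leaving out any other PC3 array gave between 430 and 463 rises and between 367 and 417 falls. The counts against untransfected cells were 220 higher and 586 lower without untransfected array b, 694 and 1624 without miR-452 array b, and 490 and 1204 without miR-452 array c. Of the 121 genes named here that passed, 74 kept their call without each PC3 array in turn, and those that did not are pointed out with their values.

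**Figure D1:**
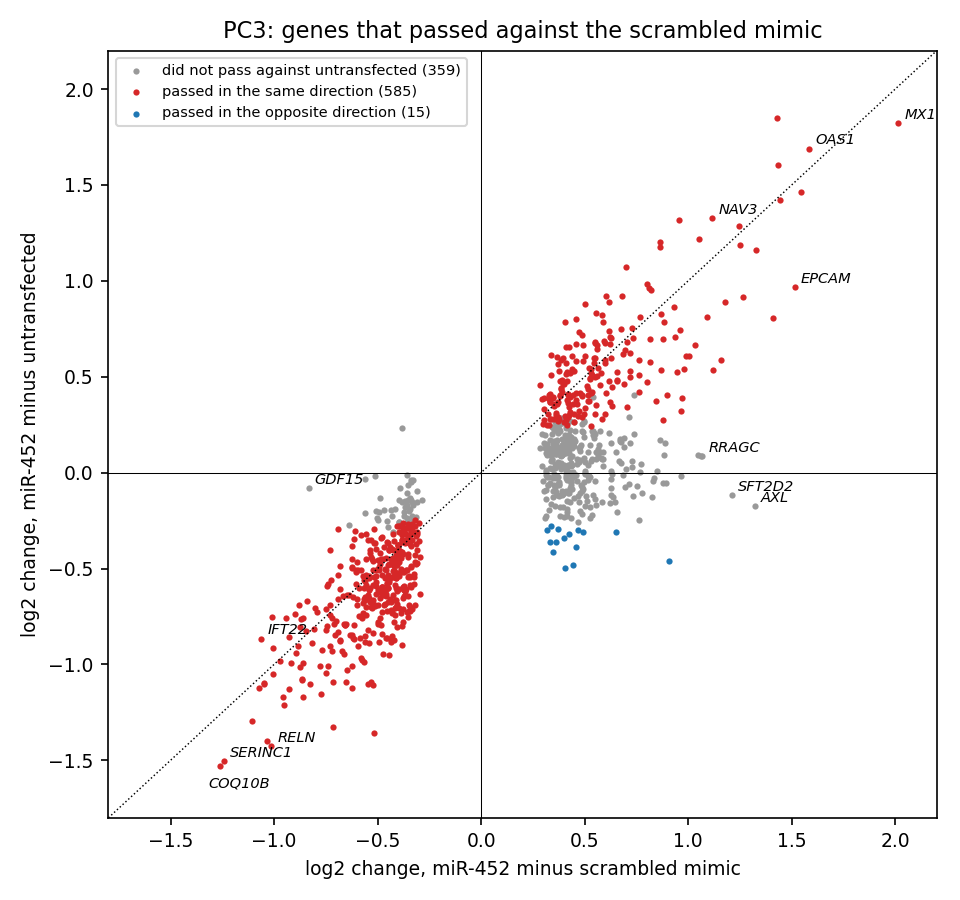
Each point is 1 of the 959 PC3 genes that passed against the scrambled mimic, with the log2 change against the scrambled mimic on the horizontal axis and against untransfected cells on the vertical axis, and the dotted line marks equal changes. Falls such as COQ10B, SERINC1 and RELN lie in the lower left under both controls, whereas AXL, SFT2D2 and RRAGC rose by more than 1 against the scrambled mimic and sit near 0 against untransfected cells.

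Of the 20 largest rises, 7 were interferon-induced antiviral effectors and 4 were sensors of foreign RNA. Of 48 effectors measured, 25 rose and 0 fell (52.1%, against 2.89% of all genes), with a median change of 0.41, and 24 of the 25 were also higher than in untransfected cells. MX1, a dynamin-like GTPase that traps viral nucleocapsids, stood at 9.44 and 8.90 with miR-452, at 7.13 and 7.18 with the scrambled mimic, and at 7.37 and 7.32 without transfection. Both miR-452 arrays were far above the other arrays, and MX1 was 4.04-fold higher than with the scrambled mimic (2.01 ± 0.14, adjusted p = 3.58e-05), the largest rise of the comparison. IFI44L, an interferon-induced protein, reached 10.46 and 10.22 against 8.85 and 8.98 (1.43 ± 0.10, adjusted p = 3.58e-05). Its scrambled arrays were already above the untransfected values of 8.55 and 8.43 (0.42, adjusted p = 0.0192), and the miR-452 arrays stood clear of both.

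IFIT1, which binds RNA that lacks the cap methylation of host mRNA, was at 8.63 and 8.50 with miR-452 and at 7.36 and 7.24 with the scrambled mimic, a rise of 1.27 ± 0.09. SAMD9, a restriction factor of poxviruses, rose by 1.45 ± 0.10 and IFITM1, a membrane protein that hinders virus entry, by 1.44 ± 0.15. IFI44 rose by 1.41 ± 0.12 and SAMD9L, the paralog of SAMD9, by 1.25 ± 0.11. IFI44 is an example of a gene on which the control matters, since its scrambled values of 6.19 and 6.26 lay below the untransfected 6.97 and 6.69, and the rise against untransfected cells was 0.80. PLSCR1, a phospholipid scramblase with antiviral activity, stood at 9.41 and 9.24 against 8.30 and 8.37 (0.99 ± 0.09) and was 0.61 above untransfected cells. The 23 effectors that did not pass included well-known interferon genes, named here after their values were seen: ISG15, a ubiquitin-like modifier, at 0.25 ± 0.09, BST2 (tetherin) at -0.03, ISG20, an exonuclease, at -0.05, and IFI27 at 0.01. The effectors given here as rising each held their call without each PC3 array in turn. The rise was thus uneven within the list, from -0.20 for GBP2 to 2.01 for MX1.

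The sensors that detect foreign RNA and DNA gave the same picture for a smaller share. Of 28 sensors and adaptors measured, 8 rose and 0 fell (28.6%), with a median change of 0.14, and 6 of the 8 were also higher than in untransfected cells. The 2'-5'-oligoadenylate synthetases, which answer double-stranded RNA by making the activator of RNase L, were foremost. OAS1 stood at 9.72 and 9.39 with miR-452, 7.99 and 7.95 with the scrambled mimic and 7.91 and 7.81 without transfection (1.58 ± 0.11, adjusted p = 3.58e-05). OAS2 was at 9.99 and 9.70 against 8.42 and 8.19 (1.54 ± 0.11), and OAS3 at 10.32 and 10.02 against 9.16 and 8.99 (1.09 ± 0.11). In all 3 the control arrays, untransfected or scrambled, lay close together and below both miR-452 arrays. IFIH1, which encodes the long double-stranded RNA sensor MDA5, rose by 1.18 ± 0.09 and RIGI, the sensor of short RNA with a 5' triphosphate, by 0.69 ± 0.08. IFI16, a DNA sensor, rose by 0.56 ± 0.08.

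Signalling genes around interferon moved less than its induced genes. Of 28 interferons, receptors, STAT and IRF factors measured, 2 rose (7.14%, against 2.89% of all genes) and 1 fell (3.57%, against 2.33%). Their median change was 0.04. IRF9, the DNA-binding subunit of the factor that interferon signalling activates, was at 8.63 and 8.21 with miR-452 and at 7.67 and 7.56 with the scrambled mimic (0.81 ± 0.12, adjusted p = 0.00183). IRF7, which drives interferon genes, rose by 0.37 ± 0.09 (adjusted p = 0.0318). IFNAR2, a chain of the type I interferon receptor, fell from 7.28 and 7.23 to 6.72 and 6.80 (-0.49 ± 0.09) and was 0.89 below untransfected cells (adjusted p = 0.000166). The IRF7 call ended without scrambled array c or either miR-452 array (adjusted p up to 0.179), and that of IFNAR2 without scrambled or miR-452 array b (up to 0.0775). Interferon transcripts themselves were not seen to rise. IFNB1, named after its value was seen, changed by 0.01 ± 0.08 at a mean level of 5.13, near the bottom of the array's range, and IFNE changed by -0.43 ± 0.12 (adjusted p = 0.0629). Markers of leukocytes, cells that also express many of these genes, gave 1 rise and 0 falls among 13 measured. It was CD68, a lysosomal membrane protein, at 0.63 ± 0.08, while the mean level of the 4 matched defining leukocyte markers lay between 5.73 and 5.77 in the scrambled arrays and between 5.72 and 5.81 in the miR-452 arrays.

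**Figure D2:**
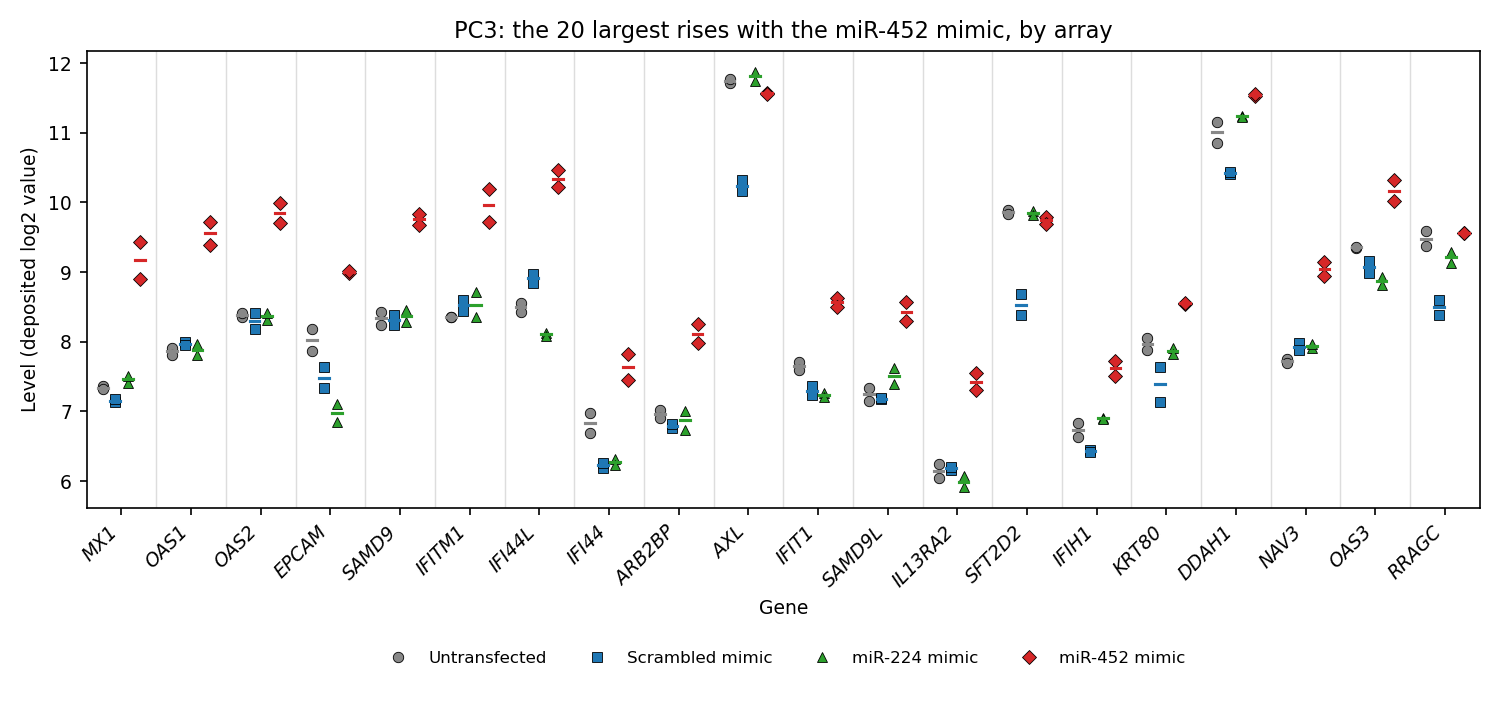
Deposited log2 levels of the 20 genes with the largest rises are shown for each of the 8 PC3 arrays, with 2 points and a bar at the mean for each group. In the interferon genes and in NAV3 and IL13RA2 the miR-452 arrays stand above all other arrays, whereas in AXL, SFT2D2 and RRAGC the scrambled arrays stand below all others.

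Promoters were compared for the element that interferon-activated factors bind, since these genes moved together. The motif searched was GAAA, any 2 bases and GAAA again, on both strands, in RefSeq windows from 250 bases before to 50 after each start site (GRCh38.p14). It was present in 3.57% of all 35116 windows. Among measured genes, 14210 of 18377 had a window and 4.12% of them held the motif in at least 1 window. It was found for 39 of 449 genes that rose and had a window (8.69%) and for 13 of 354 that fell (3.67%). Among the effectors it was found for 16 of 22 that rose (72.7%) and for 11 of 16 that did not pass (68.8%), so presence of these letters did not separate the effectors that rose from those that did not. Outside both lists, 20 of 421 rises (4.75%) held it, a share near that of all measured genes. The other motif searched, TTCNNNGAA on both strands, was found for 9.17% of measured genes, 54 of 449 rises and 7.63% of falls.

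The stretches below show the motif nearest before the start site in 4 effectors that rose and in 2 that did not pass, 5' to 3' along the gene's strand, with the motif or its reverse complement in capitals. They are MX1 at chr21:41431844-41431873, IFI44L at chr1:78620365-78620394, IFIT1 at chr10:89392510-89392539 and IFITM1 at chr11:313990-314019, then ISG15 at chr1:1013380-1013409 and IFI27 at chr14:94110631-94110660, all on the plus strand.
MX1: ggtcactctgTTTCTCTTTCcgtgaataaa
IFI44L: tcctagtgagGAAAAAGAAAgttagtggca
IFIT1: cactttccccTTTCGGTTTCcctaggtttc
IFITM1: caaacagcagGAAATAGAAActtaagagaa
ISG15: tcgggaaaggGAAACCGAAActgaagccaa
IFI27: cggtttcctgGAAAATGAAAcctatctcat

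Neighbouring immune lists had fewer calls. Of 14 MHC class I presentation genes measured, 1 rose (7.14%, against 2.89% of all genes). It was PSMB9, an immunoproteasome subunit, by 0.38 ± 0.10 (adjusted p = 0.0409), which did not pass against untransfected cells (0.28, adjusted p = 0.0535). The peptide transporter TAP1 changed by 0.24 ± 0.09 and the light chain B2M by 0.21 ± 0.10, and neither passed. CANX had the lowest change of the list, -0.43, and did not pass by limma (adjusted p = 0.0577). Against untransfected cells it passed as lower (-0.46, adjusted p = 0.0169). Of 34 inflammatory cytokines and NF-kB feedback genes, 3 rose and 0 fell (8.82%). TNFAIP3 (A20), a brake on NF-kB, rose by 0.54 ± 0.11 and was 0.51 above untransfected cells. NFKB1 rose by 0.43 ± 0.10 against the scrambled mimic but stood at -0.04 against untransfected cells. TNFSF10, the death ligand TRAIL, rose by 0.29 ± 0.07 (adjusted p = 0.0434). CXCL8 (0.31, adjusted p = 0.0837) and IL6 (0.27, adjusted p = 0.112) did not pass. The PSMB9, TNFAIP3, NFKB1 and TNFSF10 calls each ended without scrambled array c or without either miR-452 array, with adjusted p up to 0.213, 0.112, 0.172 and 0.225, and PSMB9 also on leaving out any control or miR-224 array other than scrambled b, TNFSF10 on leaving out any array.

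Of the 9 largest rises outside the effectors and sensors, EPCAM and KRT80 belonged to the list of epithelial genes. EPCAM, an epithelial adhesion protein, stood at 8.98 and 9.01 with miR-452, 7.63 and 7.33 with the scrambled mimic and 8.18 and 7.87 without transfection (1.52 ± 0.13, adjusted p = 7.39e-05). The miR-452 arrays were above both controls, with 0.97 over untransfected cells. IL13RA2, a decoy receptor of interleukin 13, was at 7.30 and 7.55 against 6.16 and 6.20 (1.25 ± 0.10), and the untransfected values of 6.24 and 6.04 were like the scrambled ones. NAV3, a microtubule-associated navigator protein, rose by 1.12 ± 0.09 and was 1.33 above untransfected cells. DDAH1, which breaks down an inhibitor of nitric oxide synthase, rose by 1.12 ± 0.10, with 0.54 over untransfected cells, and ARB2BP, a pseudogene, rose by 1.33 ± 0.11. Of 26 epithelial junction and keratin genes, 3 rose and 0 fell (11.5%), and all 3 were also higher than in untransfected cells. Besides EPCAM they were KRT80, a keratin of differentiating epithelia (1.16 ± 0.13), and KRT7, a keratin of simple epithelia (0.49 ± 0.09). The desmosome genes DSP (0.34, adjusted p = 0.0529), DSG2 (0.32, adjusted p = 0.0637) and DSC2, which went the other way (-0.34, adjusted p = 0.0595), did not pass by limma. The KRT7 call ended without miR-452 array c.

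DICER1, the enzyme that cuts microRNA precursors, rose from 9.17 and 9.10 to 10.15 and 10.04 (0.96 ± 0.10, adjusted p = 0.000187) and was 0.75 above untransfected cells. Its level was as high with miR-224, at 10.16 and 10.35, so the rise was not particular to miR-452. DICER1 was the 1 call among 18 microRNA processing and Argonaute genes, with AGO1 at -0.22 ± 0.09 and DROSHA at 0.17 ± 0.11. INPP4B, a phosphoinositide phosphatase that limits AKT signalling, rose from 7.27 and 7.20 to 8.07 and 8.04 (0.82 ± 0.10) and was the 1 call among 27 PI3K, AKT and mTOR genes. HMOX1, the haem-degrading oxygenase, rose by 0.77 ± 0.09 and was 0.81 above untransfected cells.

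In a second kind of rise the scrambled arrays were the low ones. AXL, a receptor tyrosine kinase, stood at 11.57 and 11.55 with miR-452 and at 10.32 and 10.16 with the scrambled mimic, but at 11.71 and 11.77 without transfection and at 11.75 and 11.88 with miR-224. Only the scrambled arrays were low, so the change of 1.32 ± 0.09 became -0.18 (adjusted p = 0.151) against untransfected cells. AXL was also the 1 call among the 7 TAM receptors and ligands. TYRO3 (0.05), MERTK (0.03), GAS6 (-0.09), TULP1 (-0.10), LGALS3 (-0.23) and PROS1 (0.38, adjusted p = 0.0684) did not pass. SFT2D2, a Golgi transport protein, was at 9.79 and 9.70 against 8.69 and 8.38 with the scrambled mimic and 9.89 and 9.83 without transfection. RRAGC, a RAG GTPase that signals amino acids to mTORC1, was at 9.56 and 9.57 against 8.60 and 8.39, with 9.58 and 9.37 without transfection. SFT2D2 and RRAGC stood at -0.12 and 0.08 against untransfected cells, and neither passed there.

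The same held for gene groups. PMAIP1, which encodes the pro-apoptotic NOXA, rose by 0.77 ± 0.09 against the scrambled mimic and stood at 0.00 against untransfected cells. Among 29 measured genes for DNA replication and G1/S progress, 5 rose and 0 fell (17.2%), yet 0 were higher and 14 lower than in untransfected cells. With the scrambled mimic, 20 were lower than in untransfected cells. Of all genes, 14.1% were lower with miR-452 and 10.9% with the scrambled mimic than in untransfected cells. POLE2, a subunit of the replicative polymerase epsilon, was at 9.13 and 9.25 with miR-452, 8.70 and 8.71 with the scrambled mimic and 9.51 and 9.31 without transfection. CCNE2, a cyclin of S phase entry, rose by 0.36 ± 0.08 against the scrambled mimic and was 0.36 lower than in untransfected cells (adjusted p = 0.012), and MCM6, a helicase subunit, rose by 0.33 ± 0.08 and was likewise 0.36 lower. CDC25A (0.42 ± 0.09) and RFC4 (0.31 ± 0.08) made up the 5, beside POLE2 at 0.49 ± 0.09. Each of these 5 calls ended without miR-452 array c, and those of CCNE2, MCM6, CDC25A and RFC4 also without miR-452 array b. The CCNE2 call ended too without scrambled array b, and that of CDC25A without scrambled array c. MCM6 lost its call on leaving out any scrambled, miR-224 or miR-452 array, and RFC4 on leaving out any PC3 array. Of 49 translation initiation factors, 3 rose (6.12%, against 2.89% of all genes) and 1 fell (2.04%, against 2.33%). EIF2S3 (1.05 ± 0.10) and EIF2A (0.51 ± 0.08) rose, with 0.09 and 0.04 against untransfected cells, whereas EIF2B1, a subunit of the exchange factor of eIF2, fell by 0.70 ± 0.09 and was 0.77 lower than in untransfected cells. Of 29 mitosis genes, 0 passed against the scrambled mimic by limma, with 5 lower and 0 higher at an unadjusted p under 0.05. Against untransfected cells 26 of the 29 were lower, beside 14.1% of all genes, and 22 were lower with the scrambled mimic. CCNA2, cyclin A2, changed by -0.38 ± 0.10 (adjusted p = 0.0575) and KIF20A, a mitotic kinesin, by -0.29 ± 0.08 (adjusted p = 0.0727).

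All 20 of the largest falls, from -1.26 to -0.90, were also lower than in untransfected cells, and of the 20 largest rises 17 were also higher. COQ10B, a mitochondrial coenzyme Q binding protein, stood at 7.98 and 8.16 with miR-452, 9.47 and 9.19 with the scrambled mimic and 9.71 and 9.49 without transfection. It had the largest fall, -1.26 ± 0.11 (adjusted p = 9.62e-05), and -1.53 against untransfected cells. It was the 1 call among 13 genes of coenzyme Q synthesis, where the other 12 changed by between -0.25 (COQ3) and 0.12 (PDSS1) and did not pass. SERINC1, a serine incorporator of cell membranes, was at 8.26 and 8.07 against 9.47 and 9.35 (-1.24 ± 0.10, adjusted p = 6.46e-05). Its relatives went the other way, with SERINC3 at 0.50 ± 0.09 and SERINC5, which restricts retroviruses, at 0.63 ± 0.09, but both stood near their untransfected levels (0.08 and 0.01). The SERINC3 call ended without miR-452 array b (adjusted p = 0.0586). TMEM184C, a membrane protein of uncertain function, fell from 9.98 and 10.01 to 8.90 and 8.87 (-1.11 ± 0.09).

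Genes of the secretory pathway moved both ways. Of 39 COPI, COPII and ARF genes, 3 fell (7.69%, against 2.33% of all genes) and 2 rose (5.13%, against 2.89%), and of 59 RAB GTPases 1 fell and 1 rose (1.69% each). ARF4, a GTPase of Golgi and endosome traffic, was at 10.68 and 10.69 with miR-452 and between 11.73 and 11.85 in the scrambled and untransfected arrays (-1.07 ± 0.08, adjusted p = 6.46e-05). ARL1, a GTPase of the trans-Golgi, was at 8.99 and 9.04 against 10.09 and 9.95 (adjusted p = 0.000316), and SEC23A, an inner COPII coat subunit, fell from 11.11 and 11.10 to 10.15 and 10.31 (-0.88 ± 0.08). All 3 were lower than in untransfected cells too. The 2 rises, the coat subunit SEC24C (0.88 ± 0.08) and ARFGAP2 (0.52 ± 0.09), were not, at -0.05 and -0.23, and the ARFGAP2 call ended without miR-452 array b (adjusted p = 0.0536). Of 22 V-ATPase subunits, which acidify endosomes and lysosomes, ATP6V1B2 (-0.54 ± 0.09) and ATP6V0A2 (-0.39 ± 0.09) fell, the latter not without scrambled array b or either miR-452 array (adjusted p up to 0.176). ASAH1, the lysosomal acid ceramidase, fell from 10.14 in both scrambled arrays to 9.19 and 9.08 (-1.01 ± 0.08) and was the 1 fall beside 1 rise among 20 sphingolipid enzymes. A sphingomyelin synthase gene of that list, SGMS1, rose by 0.40 ± 0.08, a call that ended without scrambled array b or either miR-452 array. Of the 20 genes of that list, 0 passed as higher than in untransfected cells. The autophagy and lysosome list had 2 falls and 1 rise among 30 measured. ATG5, part of the conjugation machinery of the autophagosome, fell by 0.53 ± 0.08, and ATG16L1, of the same machinery, rose by 0.71 ± 0.10 against the scrambled mimic and did not pass against untransfected cells (0.29, adjusted p = 0.065).

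**Figure D3:**
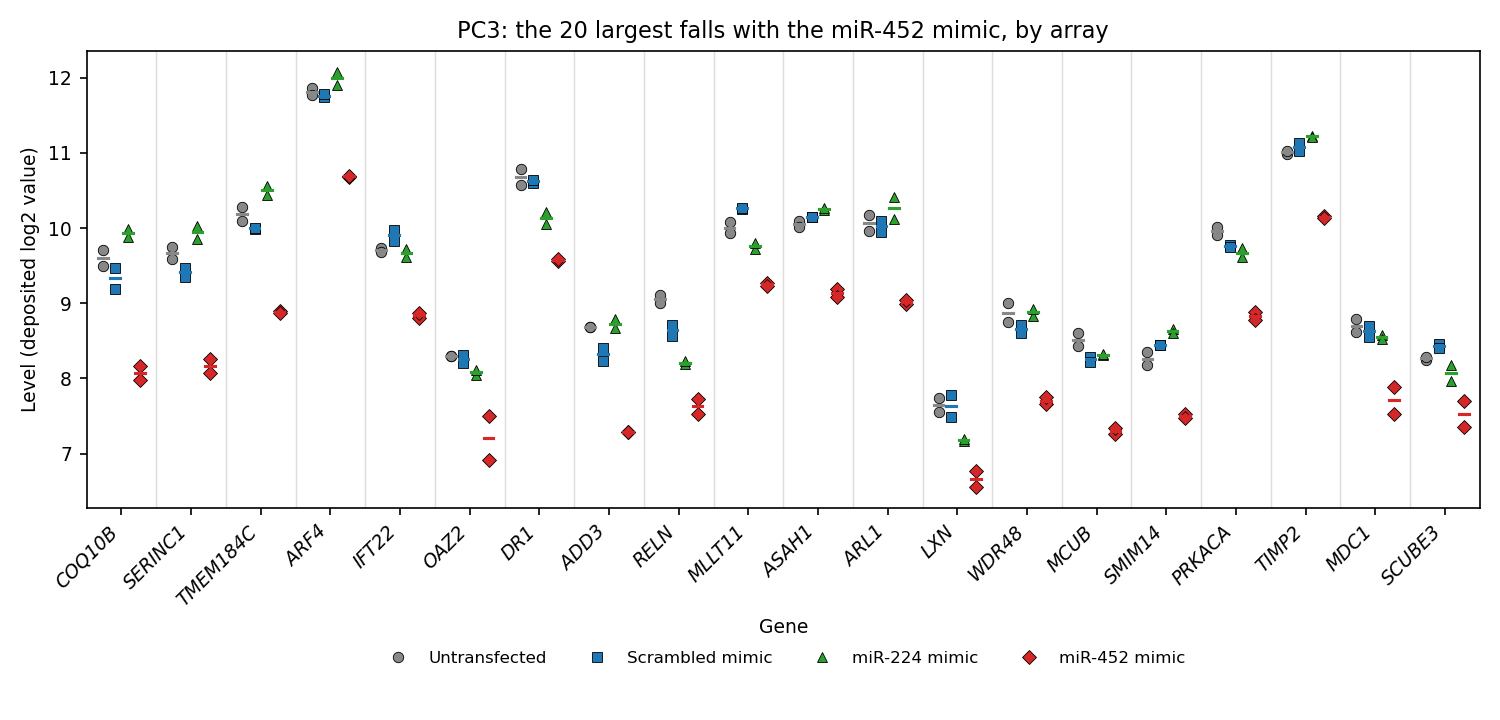
Deposited log2 levels of the 20 genes with the largest falls are shown for each of the 8 PC3 arrays, with 2 points and a bar at the mean for each group. In each gene both miR-452 arrays lie below the scrambled and the untransfected arrays, and in COQ10B, SERINC1 and TMEM184C the miR-224 arrays are among the highest.

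Further falls were spread over many functions. IFT22, a small GTPase of the intraflagellar transport train of cilia, fell from 9.98 and 9.83 to 8.81 and 8.88 (-1.06 ± 0.08). It was the 1 call among 23 transport genes, of which 11 were lower than in untransfected cells, beside 14.1% of all genes. OAZ2, an antizyme that holds back polyamine synthesis, was at 7.50 and 6.91 against 8.31 and 8.20 (-1.05 ± 0.14). Its miR-452 arrays lay far apart, though both were below the control arrays. DR1, a repressor of the TATA-binding protein, fell by 1.05 ± 0.09, and PRKACA, the catalytic subunit of protein kinase A, by 0.93 ± 0.08. WDR48, a partner of deubiquitinases, fell by 0.96 ± 0.10, MDC1, a scaffold of the DNA damage response, by 0.92 ± 0.11, and MCUB, a subunit of the mitochondrial calcium uniporter, by 0.95 ± 0.08. ADD3, an adducin of the membrane skeleton, was at 7.29 and 7.28 against 8.41 and 8.23 (-1.03 ± 0.09), and ADD1 (0.25) and ADD2 (-0.07) did not pass. RELN, the secreted protein reelin, fell from 8.71 and 8.57 to 7.72 and 7.53 (-1.01 ± 0.09), and VLDLR, 1 of its receptors, fell by 0.36 ± 0.09 (adjusted p = 0.0436) but not against untransfected cells (-0.11). The VLDLR call ended on leaving out any 1 of 7 arrays (adjusted p up to 0.183).

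Matrix and adhesion genes moved both ways. TIMP2, an inhibitor of matrix metalloproteinases, fell from 11.13 and 11.02 to 10.16 and 10.14 (-0.93 ± 0.08). Of 28 matrix proteases and inhibitors it was 1 of 3 that fell, with ADAMTS1 (-0.61 ± 0.09) and the sheddase ADAM17 (-0.54 ± 0.09), and all 3 were lower than in untransfected cells. SPINT1, an inhibitor of cell-surface serine proteases, rose by 0.53 ± 0.10, and SERPINB5 (maspin) by 0.37 ± 0.09. In the list of 31 collagens, laminins and integrins, LAMB3, a chain of basement membrane laminin, rose by 0.60 ± 0.09, and the integrin chains ITGA5 and ITGAV rose by 0.62 ± 0.12 and 0.34 ± 0.09. ITGA5 was at 10.54 and 10.26 with miR-452 and also high with miR-224, at 10.55 and 10.57. COL6A1 and LAMC1 fell by 0.55 ± 0.09 and 0.40 ± 0.10. Of 29 Wnt ligands, receptors and feedback genes, 2 fell (6.9%, against 2.33% of all genes) and 1 rose (3.45%, against 2.89%). WNT5A, a ligand of non-canonical Wnt signalling, fell by 0.50 ± 0.12, and GSK3B, a kinase that marks beta-catenin for destruction, by 0.43 ± 0.10. The receptor FZD6 rose by 0.32 ± 0.07 (adjusted p = 0.0296) and did not pass against untransfected cells (0.10). Calls that ended without at least 1 scrambled or miR-452 array were those of SPINT1 (scrambled c or miR-452 b, adjusted p up to 0.0908), ITGA5 (the same arrays, 0.0908), COL6A1 (miR-452 c, 0.052), GSK3B (scrambled b or either miR-452 array, 0.185), SERPINB5 (any scrambled or miR-452 array, 0.179), WNT5A (any array but those of miR-224, 0.224), LAMC1 (either untransfected or miR-452 array or scrambled b, 0.198), FZD6 (any array but the untransfected, 0.175) and ITGAV (any PC3 array, 0.253).

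In the TGF-beta list of 20 genes, 3 fell (15%, against 2.33% of all genes) and 2 rose (10%, against 2.89%). SMAD2, which carries the receptor's signal to the nucleus, stood at 7.94 and 7.84 with miR-452 against 8.76 and 8.74 (-0.86 ± 0.09, adjusted p = 0.000245), and its partner SMAD4 fell by 0.36 ± 0.08. LTBP1, which stores latent TGF-beta in the matrix, fell by 0.59 ± 0.09. The receptor TGFBR2 rose by 0.42 ± 0.08. SMAD3 rose by 0.44 ± 0.09 against the scrambled mimic and stood at -0.09 against untransfected cells. All 3 falls and TGFBR2 also passed against untransfected cells. Without scrambled array c or miR-452 array b the calls of SMAD4, TGFBR2 and SMAD3 ended (adjusted p up to 0.146, 0.0733 and 0.128), and those of SMAD4 and TGFBR2 also without miR-452 array c.

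Metabolic and stress lists showed a few modest falls. The hypoxia and glycolysis list had 6 falls and 0 rises among 27 measured (22.2%, against 2.33% of all genes), with a median of -0.15. BNIP3, a hypoxia-induced mitophagy receptor, was at 11.04 and 11.07 against 11.60 and 11.63 (-0.56 ± 0.07), and the untransfected values of 11.28 and 11.25 lay between, so that it did not pass there (-0.21, adjusted p = 0.0586). The glycolytic genes PGK1 (-0.52 ± 0.08), ENO2 (-0.53 ± 0.10), ALDOC (-0.43 ± 0.08) and PFKP (-0.36 ± 0.09) passed against both controls. PFKFB4 fell by 0.36 ± 0.08 and stood at -0.01 against untransfected cells. Without scrambled array b 2 members of the list fell, and without miR-452 array b or c 3 fell. Of 29 ATF4 and unfolded protein response genes, MANF (-0.51 ± 0.08), ATF4 itself (-0.41 ± 0.09) and HERPUD1 (-0.35 ± 0.08) fell, each also against untransfected cells. SLC7A11, the cystine importer, rose by 0.32 ± 0.07 and stood at -0.02 against untransfected cells. FDPS, of the mevalonate pathway, was at 7.68 and 7.69 against 8.39 and 8.25 (-0.63 ± 0.08). SCD, a fatty acid desaturase, fell by 0.37 ± 0.08. They were the 2 calls among 24 sterol and fatty acid synthesis genes (8.33%). FDPS was also lower than in untransfected cells (-0.85), whereas SCD did not pass there by limma (-0.18, adjusted p = 0.147). ABCA1, the cholesterol exporter, fell by 0.38 ± 0.08, the 1 call among 11 efflux and LXR genes. Without scrambled array b the calls of ENO2, ALDOC, PFKP, PFKFB4, ATF4, HERPUD1, SLC7A11, SCD and ABCA1 ended, and each also ended without at least 1 miR-452 array, with adjusted p up to 0.268 (PFKP).

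Cell cycle brakes and death genes were mixed. TP53INP1, a p53-induced protein, fell from 7.65 and 7.72 to 7.06 and 6.93 (-0.69 ± 0.08). GDF15, a stress-induced cytokine, fell by 0.83 ± 0.10 from scrambled values of 9.05 and 8.97 to 8.31 and 8.04, but the untransfected arrays were at 8.24 and 8.27 (-0.08, adjusted p = 0.555). FAS, a death receptor, rose by 0.40 ± 0.08 and was 0.30 above untransfected cells. BCL2A1, an anti-apoptotic member of the BCL2 family, rose by 0.45 ± 0.10, and TNFRSF10B, a TRAIL receptor, by 0.43 ± 0.09. FAS was at 6.78 and 6.67 with miR-452 and at 6.82 and 6.78 with miR-224. TNFRSF10B was at 9.62 and 9.54 with miR-452 and higher with miR-224, at 10.26 and 10.40. These 3 rises ended without some arrays, namely FAS without scrambled or miR-452 array b (adjusted p up to 0.107), BCL2A1 without either scrambled array or miR-452 array c (up to 0.22) and TNFRSF10B without scrambled array c or either miR-452 array (up to 0.118). Of 17 clock genes, 4 fell and 0 rose (23.5%). They were NR1D2 (-0.44 ± 0.09), CIART (-0.51 ± 0.11), PER3 (-0.41 ± 0.10) and CLOCK (-0.34 ± 0.08), and without scrambled array b 0 of the list passed by limma. Each also lost its call without at least 1 miR-452 array, with adjusted p up to 0.236 (CLOCK). NR1D2, PER3 and CLOCK were also lower than in untransfected cells.

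**Figure D4:**
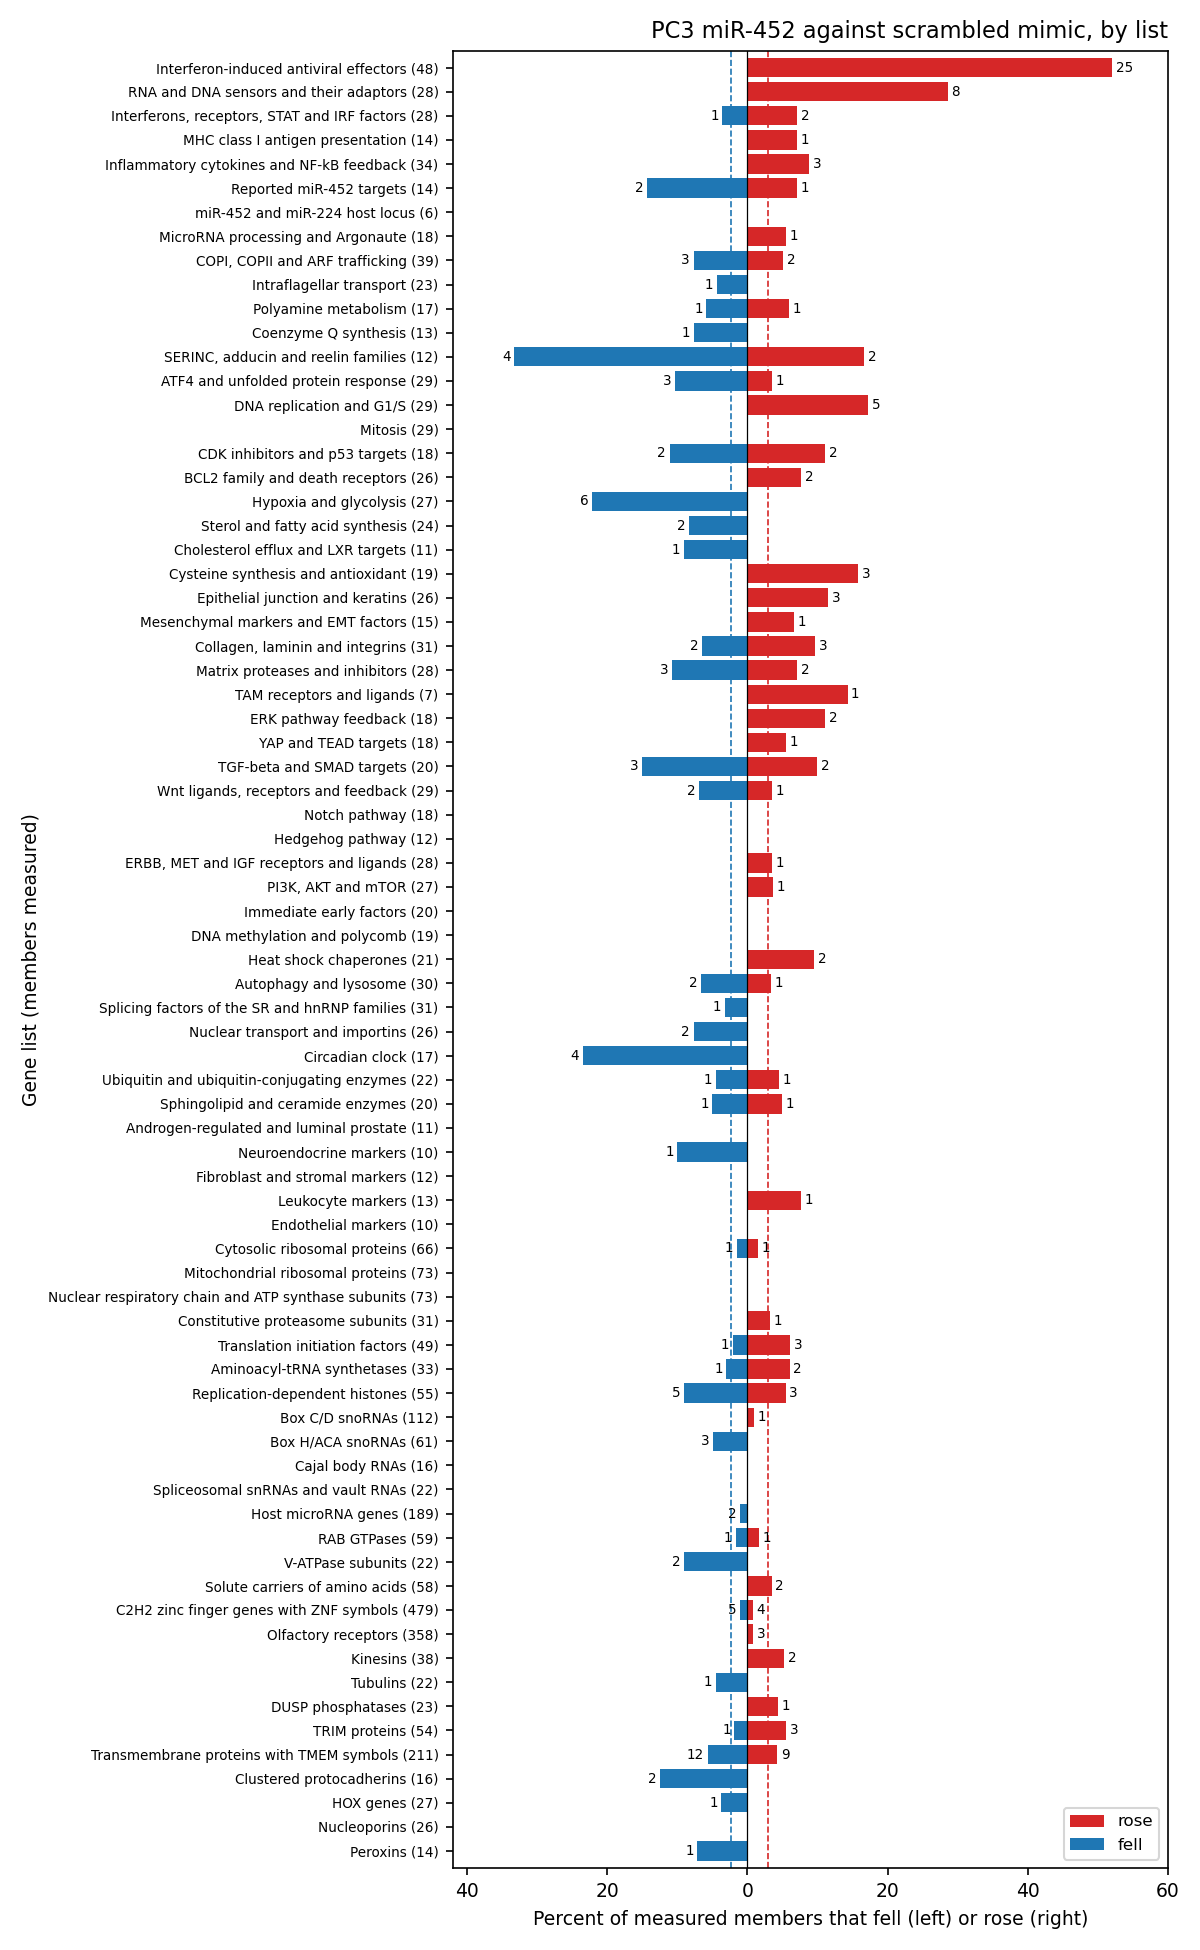
For each gene list the bars give the percent of measured members that rose (right, red) or fell (left, blue) with miR-452 against the scrambled mimic, the numbers at the bars are the counts, and the dashed lines mark the shares over all genes, 2.89% and 2.33%. The interferon effectors (25 of 48) and the RNA and DNA sensors (8 of 28) extend farthest to the right, and most large families lie near or below the dashed lines.

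Most large families of the basic machinery gave few calls. Of 66 cytosolic ribosomal protein genes, 1 rose and 1 fell, with a median of -0.03. Of 73 mitochondrial ribosomal protein genes 0 passed by limma, with 4 higher and 4 lower at an unadjusted p under 0.05, and of 73 nuclear respiratory chain and ATP synthase genes 0 passed, with 3 and 2. Among 479 genes with ZNF symbols 4 rose and 5 fell. Against untransfected cells 104 were lower and 13 higher, beside 14.1% and 8.12% of all genes. Of 55 replication-dependent histone genes, 3 rose (5.45%, against 2.89% of all genes) and 5 fell (9.09%, against 2.33%). Their median was -0.14, with 48 below 0 and 7 above. At an unadjusted p under 0.05 by limma, 3 were higher and 20 lower. H4C8 stood at 0.50, a call that ended without miR-452 array b. H2AC14 stood at -0.51, and its call ended without that array, either untransfected array or either scrambled array. Among 112 box C/D snoRNAs 1 rose (0.893%, against 2.89% of all genes), and among 61 box H/ACA snoRNAs 3 fell (4.92%, against 2.33%). No gene passed in the lists of Notch (18 genes, with 2 higher and 1 lower at an unadjusted p under 0.05), Hedgehog (12, with 0 and 3) or immediate early factors (20, with 2 and 0). The genes with TMEM symbols, a group joined only by name, gave 9 rises (4.27%) and 12 falls (5.69%) among 211. Each of the 12 falls also passed as lower against untransfected cells, as did 88.6% of all falls. The miR-452 arrays were shared by both comparisons. Olfactory receptors, which act mainly in the nose, give a view of weak signals. Of 358, 3 rose against the scrambled mimic (median 0.14), but 172 were higher than in untransfected cells (median 0.35), beside 8.12% of all genes. The part of this shift in other weakly expressed genes was not tested.

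The host locus and earlier reported targets were looked at on their own. The 6 measured genes of the locus, GABRE (-0.08), GABRA3 (0.00), GABRQ (0.01), MAGEA10 (0.10), CETN2 (-0.14) and NSDHL (0.02), did not pass by limma, and 0 had an unadjusted p under 0.05. Of 14 measured genes recalled as reported miR-452 targets, 2 fell and 1 rose. WWP1, a ubiquitin ligase, was at 9.82 and 9.88 against 10.75 and 10.69 (-0.87 ± 0.08, adjusted p = 0.00012), and DPYSL2, which acts in growing axons, was at 9.49 and 9.32 against 10.25 and 10.14 (-0.79 ± 0.09). DPYSL2 was lower still with miR-224, at 8.82 and 8.67, so a low level was not particular to miR-452. CPEB3, a repressor of translation, rose by 0.53 ± 0.09. SOX7 (-0.35, adjusted p = 0.0983) and CDKN1B (-0.26, adjusted p = 0.125) did not pass.

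Set against the miR-224 mimic in the same line, 1101 genes were higher with miR-452 (5.99%) and 2299 lower (12.5%). Of the 531 rises against the scrambled mimic, 218 were also higher than with miR-224 and 39 were lower, and of the 428 falls 314 were also lower and 10 higher, with the miR-452 arrays shared by both comparisons. The counts between mimics were 538 and 1104 without miR-224 array b, 668 higher without miR-224 array a, and 561 and 1226 without miR-452 array c. IFI44L was at 8.13 and 8.08 with miR-224, so the difference between mimics was 2.24, larger than that from the scrambled mimic. EPCAM was at 6.85 and 7.11, a difference of 2.02. The other smallest p among rises belonged to OAS1 (1.67), IFIT1 (1.33), C1orf116 (1.41), an epithelial gene of uncertain function, and SERPINB1 (1.16), an inhibitor of neutrophil proteases. Among falls they belonged to TMEM184C (-1.61), SERINC1 (-1.78), ADD3 (-1.44), COQ10B (-1.87), TACC1 (-1.14), a centrosomal protein, and ARF4 (-1.30). AXL, by contrast, stood 0.25 below its miR-224 level.

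In DU145 most of the large PC3 falls were negative too, while most of the interferon rises named above differed between lines. The DU145 scrambled group has 1 array, whose spread is taken to be that of the other groups, and only changes within a line are compared because the authors normalized the lines apart. The change differed between lines in 87 genes with a higher value in PC3 (0.473%) and 27 with a lower one (0.147%). Of the 531 PC3 rises 49 were among the former, and of the 428 falls 12 among the latter. In DU145, MX1 changed by 0.10, OAS1 by 0.01 and IFI44L by -0.20 against the scrambled mimic, and the differences between lines were 1.91 (adjusted p = 0.00141), 1.57 (adjusted p = 0.00141) and 1.63 (adjusted p = 0.000705). SAMD9 changed by 0.71 in DU145, and its difference from PC3 did not pass. IL13RA2 (-0.07 in DU145), CD68 (-0.36) and IFIT1 (0.13) differed as well. Among falls, TMEM184C changed by -1.12 in DU145 and -1.11 in PC3, IFT22 by -1.13 and -1.06, MCUB by -1.27 and -0.95, and none of these differences passed. RELN (0.08 in DU145), MLLT11 (0.00), LXN (0.01), a carboxypeptidase inhibitor, and RDH10 (-0.04), a retinol dehydrogenase, fell in PC3 with a difference between lines that passed. SLC7A11 changed by 1.16 in DU145 against its single scrambled array but by 0.26 against untransfected cells, and with untransfected controls its difference between lines did not pass (-0.28, adjusted p = 0.198). The number of differences between lines rested on single arrays: leaving out 1 array gave between 21 and 225 genes with a higher change in PC3 and between 4 and 38 with a lower one. The count of higher changes was 21 without PC3 scrambled array c or miR-452 array b, 41 without PC3 miR-452 array c, 30 on removing 1 of the untransfected DU145 arrays, and 225 without DU145 miR-452 array c. Among the differences named here, those of MX1, OAS1, IFI44L, IL13RA2, CD68, IFIT1, RELN, MLLT11 and, with the scrambled control, SLC7A11 held without each of the 14 arrays that can be left out, whereas LXN (adjusted p up to 0.0694) and RDH10 (up to 0.102) did not.

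**Figure D5:**
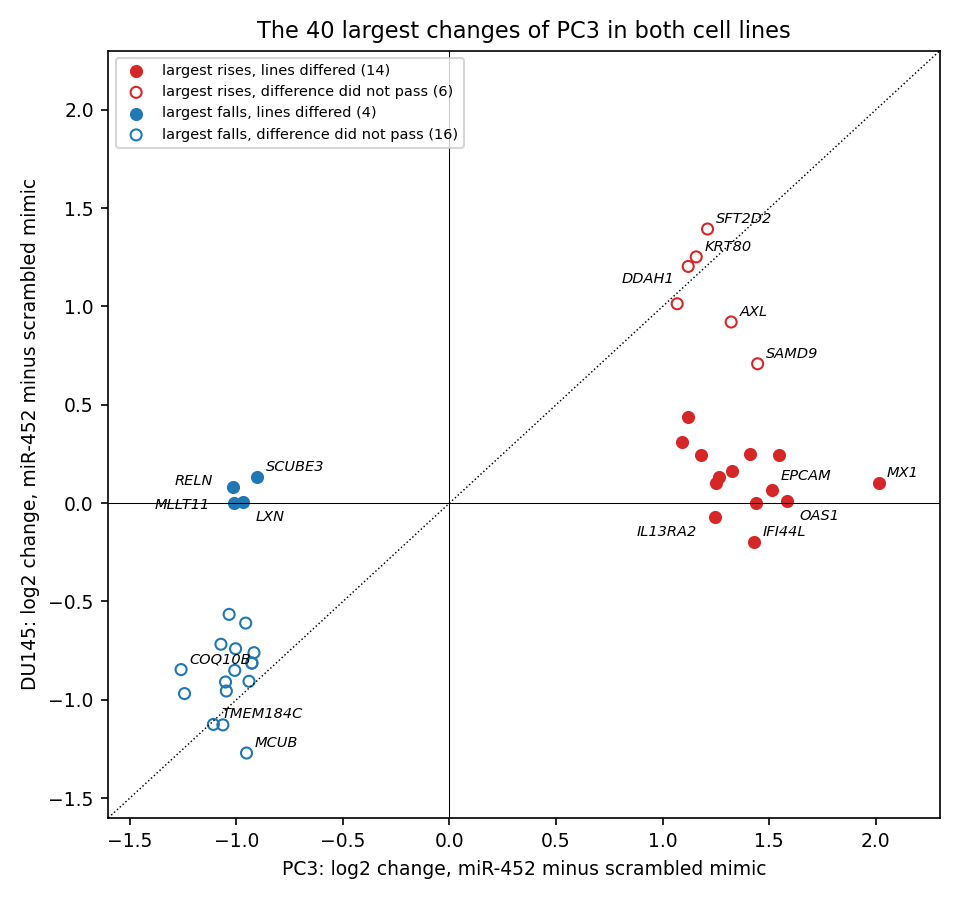
The 20 largest rises and 20 largest falls of PC3 are placed by their log2 change against the scrambled mimic in PC3 (horizontal) and in DU145 (vertical), with filled points where the difference between lines passed and a dotted line of equal change. Interferon genes such as MX1 and OAS1 lie near 0 on the DU145 axis, while most falls lie below 0 in both lines, with RELN, MLLT11, LXN and SCUBE3 near 0 in DU145.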

How the data were processed

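RNA was hybridised to Human Gene 1.0 ST arrays (Affymetrix), with 100 ng of total RNA for each. The deposited log2 values were made by the authors with RMA16 normalization in GeneSpring GX 11.0, with the PC3 and DU145 arrays normalized apart, per the labels' design text. RMA16 is understood to add 16 before the logarithm, which is not stated and would understate folds of weak genes. The genome build is not given in the sources used here. The values were used as deposited.

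Of 28869 features, 19310 carried 1 gene symbol, updated through RefSeq by Entrez number (19279 matched) and averaged per symbol to 18377 genes, 685 of them from more than 1 feature. No filter on level was set. Group means of all 8 PC3 arrays were fitted with limma 3.58.1 in R 4.3.3 (4 residual degrees of freedom, empirical Bayes moderation, two-sided, Benjamini-Hochberg threshold 0.05), and all 15 arrays for the difference between lines. The script was tested on simulated data. Whether replicate arrays came from separate cultures is not said in the labels, and the p-values therefore reflect no more than the spread of these arrays, which may be technical. The number of arrays limits the precision.

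Genes were named by rule: the 20 largest rises and falls whose arrays did not overlap the scrambled arrays, up to 6 members of a described list with the smallest p, all members of lists of up to 13 entries, and 6 genes each way for the differences from miR-224 and between lines. Marker genes and others said to be chosen after their values were seen stand outside it. The comparison and the 76 lists, written from general knowledge and 1 of them after the values were seen, were chosen with earlier results of these data known, and lists are described by counts and medians only. Alternatives were another control, other arrays in the fit, a level filter, single features, quantile normalization, trend and robust moderation, a replicate block and each array left out. Promoter windows and microRNAs came from RefSeq tables on GRCh38.p14. Coordinates count from 1.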

Additional observations from a re-analysis of the deposited data

Results flagged for a closer look

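A test of the difference in change between PC3 and DU145 passed for 27 of the genes named above, by limma over all genes, with 1 DU145 scrambled array. Values are the log2 change with miR-452 against the scrambled mimic in PC3 minus that in DU145. Among interferon genes and sensors the differences were 1.91 for MX1, 1.63 for IFI44L, 1.57 for OAS1, 1.44 for IFITM1, 1.30 for OAS2, 1.16 for IFI44, 1.15 for SAMD9L, 1.14 for IFIT1, 0.94 for IFIH1, 0.91 for PLSCR1 and 0.78 for OAS3. PSMB9 differed by 0.77. Among epithelial genes EPCAM differed by 1.45, KRT19 by 0.83 and C1orf116 by 0.67. IL13RA2 differed by 1.32, ARB2BP by 1.16, SERPINB1 by 1.02, CD68 by 0.99, NAV3 by 0.68 and CETN2 by 0.58. Negative differences were those of RELN (-1.10), MLLT11 (-1.01), LXN (-0.98), SLC7A11 (-0.84), RDH10 (-0.80) and ADD2 (-0.67).

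Of the 27 differences, 15 passed without each array in turn and 12 did not, and with the untransfected arrays as the control in both lines 23 passed and 26 had the same sign. The exception in sign was ADD2, at 0.31. The 12 that did not hold varied in how many of the 14 arrays ended the call when left out. That number was 13 for NAV3, 12 for OAS3, 11 for CETN2 and 8 for ADD2. It was 7 for KRT19 and RDH10, 6 for EPCAM, PSMB9 and C1orf116, 2 for LXN, and 1 for IFIH1 and PLSCR1. KRT19, CETN2 and ADD2 did not pass within PC3. The 4 that did not pass with the untransfected control were PSMB9, ADD2, SLC7A11 and RDH10.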

How the results depend on the processing

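With the untransfected arrays as the control, 1493 genes were higher and 2587 lower, with the mean of both controls 1299 were lower, and with only the miR-452 and scrambled arrays in the fit 323 rose and 259 fell. With the replicate block, the array letter as a term in the fit, 509 rose and 416 fell. The labels do not say that letters pair arrays and only 2 pairs exist, and with the untransfected letters crossed the counts were 572 and 467 (chosen after seeing the data). Leaving out 1 array in turn gave 235 to 463 rises and 190 to 417 falls. Against untransfected cells the ranges were 220 to 1204 higher and 586 to 2419 lower, and quantile normalization gave 1722 lower. Against miR-224 the replicate block gave 577 higher and 1375 lower, and leaving out arrays gave 538 to 1350 and 1104 to 2466. For the difference between lines the untransfected control gave 404 and 125, trend and robust moderation 134 higher, and leaving out arrays 21 to 225 and 4 to 38. The cause of these moves was not tested beyond the fewer arrays fitted.

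With the untransfected control the sign turned for AXL (-0.18), SFT2D2 (-0.12), NFKB1 (-0.039), POLE2 (-0.22), CCNE2 (-0.36), MCM6 (-0.36, and -0.016 with the mean of both controls), RFC4 (-0.092), SEC24C (-0.052), ARFGAP2 (-0.23), SMAD3 (-0.085) and SLC7A11 (-0.022). Of the 121 genes that passed and are named in the comparisons above, 89 kept their call with that control, all but 1 with quantile normalization, 121 with trend and robust moderation, 113 with the replicate block, and 74 without each PC3 array in turn. Signal near background and 2 arrays a group limit what can be seen of weak genes.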

Other observations

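Genes of the BBSome and of the transition zone at the base of cilia, a list put together after IFT22 and several TMEM genes had been seen among the falls, gave 6 falls and 0 rises among 32 measured (18.8%, beside 2.33% of all genes), with a median of -0.10. BBS1, a BBSome subunit, was at 7.82 and 7.72 with miR-452, 8.70 and 8.60 with the scrambled mimic and 8.36 and 8.57 without transfection (-0.88 ± 0.09). BBS10, a chaperonin-like protein of BBSome assembly, fell by 0.75 ± 0.09, and the transition zone genes TMEM237, TMEM231, TMEM67 and TMEM17 fell by 0.58, 0.47, 0.44 and 0.38. All 6 were also lower than in untransfected cells, where 14 members were lower, and 3 members fell on leaving out miR-452 array b or c. Of all genes, 14.1% were lower than in untransfected cells. Because the list was chosen on these values, its count is a description.

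The 20 rises outside the interferon and sensor lists whose promoter windows held the GAAA motif pair were looked at after their values were seen, and 8 of them were also higher than in untransfected cells. Among these, CD274, the immune checkpoint ligand PD-L1, stood at 6.98 and 6.90 with miR-452, 6.33 and 6.16 with the scrambled mimic and 6.26 and 6.34 without transfection (0.70 ± 0.10). It was 0.64 above untransfected cells by limma (adjusted p = 0.00194). TRIM16, a tripartite motif protein, rose by 0.55 ± 0.10 and CEACAM1, a cell adhesion molecule, by 0.46 ± 0.08. AXL also held the motif pair and was not higher than in untransfected cells.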
